A study of Homo sapiens with 16 samples.

Results

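TGFB1 and TGFB2, which encode transforming growth factor beta ligands, TGFBR2, which encodes their type II receptor, and SMAD4, which encodes the shared SMAD partner, were followed through the Gene Ontology enrichment tables of brain metastases from 2 human breast cancer lines. The 4 genes were chosen because these tables name them, and they stand among 2676 genes named in all. The HCC1954 table named 1 of the 4, TGFB1, and the MDA231 table named the other 3. The tables name 30 genes for HCC1954 and 2646 for MDA231, which is 0.179% and 15.8% of their common background of 16792 genes. No gene at all was named in both (0 of 2676), so the split of the 4 genes between the lines is one that every named gene shows. Because being named is what chose these genes, the counts below describe the tables and carry no test.

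The RNA came from brains of mice that had been injected with a brain-metastatic derivative of either line and were harvested after 30 days. HCC1954 carries amplified ERBB2, and MDA231 (MDA-MB-231) lacks hormone receptors and ERBB2 overexpression. In Flura-seq, the method used, tumor cells that can convert 5-fluorocytosine build it into new RNA, and an antibody then recovers the labelled RNA from the whole brain; all mice received 250 mg/kg of 5-fluorocytosine 12 hours before harvest. The labels give 16 libraries in 4 groups of 4: immunoprecipitated (IP) HCC1954 RNA, input HCC1954 RNA, IP MDA231 RNA and input MDA231 RNA. No value per library enters the tables, so depth is unknown, no value has a replicate error, and the labelled cell identity could not be set against marker genes. How genes entered a list, and whether IP RNA held more or less of them than input RNA, is not given in any source used here. A gene named below is therefore a gene in that line's list, with no direction.

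TGF-beta ligands are secreted in a latent form, are released from it outside the cell, and bind TGFBR2, a serine/threonine kinase that then recruits and phosphorylates a type I receptor. The activated type I receptor phosphorylates SMAD2 and SMAD3, which enter the nucleus with SMAD4 and regulate transcription together with other factors. The pathway restrains growth of normal epithelium and is also known for driving matrix production and epithelial to mesenchymal transition in carcinoma cells. TGFB1 lies on chromosome 19 (GRCh38, 41301587 to 41353911, minus strand), TGFB2 on chromosome 1 (218346235 to 218444619, plus strand), TGFBR2 on chromosome 3 (30606502 to 30694142, plus strand) and SMAD4 on chromosome 18 (51028394 to 51085045, plus strand). All 4 are protein-coding, and the coordinates span the whole annotated gene, introns included.

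The ligand named for HCC1954, TGFB1, was the gene found in the most terms of its table, 21 of 37 (56.8%), where the median named gene was in 2. How many Gene Ontology terms each gene belongs to in all is not given, so term counts, here and below, are not set against that number. The 5 terms with the smallest p all named TGFB1, as did 8 of the first 10. Of its 21 terms, 0 had an adjusted p under 0.05, as for the whole table (0% of 37), and 12 of the 21 (57.1%) had an unadjusted p under 0.05 against 67.6% of all 37 in the authors' deposited table. The terms that named TGFB1 had a median fold enrichment of 19.6 (range 3.21 to 72.7) and the 16 other terms one of 44.3 in the authors' deposited table. A fold is the share of listed genes in a term divided by the share of background genes in it. The 21 terms were also broader, with a median of 36 background genes against 11.5 in the other 16. A term of 2 listed genes among few background genes reaches a high fold, so the folds of the 2 sets of terms were not compared further.

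TGFB1 was named with 15 of the 29 other HCC1954 genes, and its terms fell into sets with different partners. HMGA2, an architectural chromatin protein, and GAS6, the ligand of the receptor kinase AXL, each shared 6 terms with TGFB1. BMP7, a bone morphogenetic protein and thus a ligand of the same superfamily, shared 5. ANKRD1, a stress-responsive ankyrin-repeat protein, shared 4. CYBA, the p22phox subunit of NADPH oxidase, and APBB1, an adaptor that binds the amyloid precursor protein, shared 3 each. ENPP1, EREG, CCN3 and AXL shared 2 each, and EMP3, PLAG1, PRDM8, IGFBP7 and SRGN 1 each. All terms of HMGA2 but 2 of its 8 therefore held TGFB1, and so did all 4 terms of ANKRD1 and all 3 of CYBA.

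**Figure D1:**
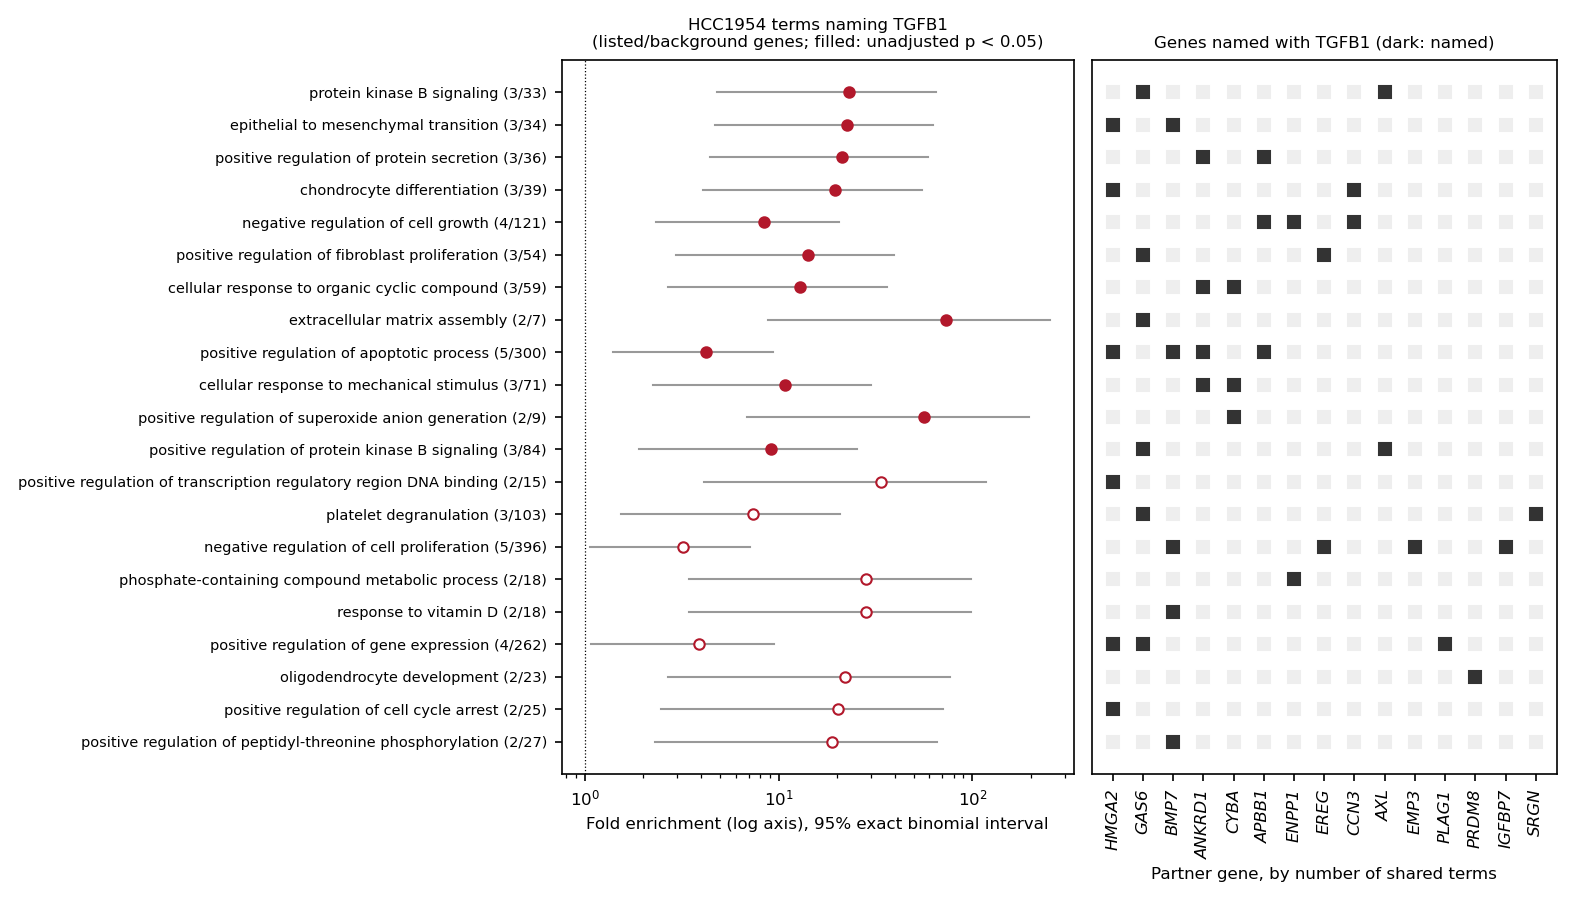
The 21 HCC1954 terms that name TGFB1, ordered by p from the top, with the deposited fold enrichment (points, log axis; filled where the unadjusted p was under 0.05) and its 95% exact binomial interval (lines), beside a grid of the 15 genes named with TGFB1 (dark where the term names the gene). HMGA2 and GAS6 each fill 6 rows but share only 1 of them. All intervals lie above 1, which the listing itself favors, since no listed term had an unadjusted p above 0.0995. Of the 21 terms, 0 had an adjusted p under 0.05.

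The AXL and GAS6 pair and the BMP7 and HMGA2 pair stood with TGFB1 in mostly separate terms. AXL or GAS6 stood in 6 of the 21 terms and BMP7 or HMGA2 in 9, and 1 term, positive regulation of gene expression, held genes of both pairs (GAS6 and HMGA2, with the zinc finger gene PLAG1). No term held TGFB1 with both AXL and BMP7, with both AXL and HMGA2, or with both GAS6 and BMP7 (0 of 21 each). The remaining 7 terms named none of these 4 genes.

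The 6 terms with AXL or GAS6 were protein kinase B signaling and its positive regulation, extracellular matrix assembly, positive regulation of fibroblast proliferation, platelet degranulation and positive regulation of gene expression. Positive regulation of fibroblast proliferation named TGFB1 with GAS6 and EREG, an epidermal growth factor family ligand, and held 3 of 54 background genes, 14.1-fold enriched by the authors' deposited table (95% bounds 2.95 to 39.5, unadjusted p = 0.0186). Platelet degranulation named TGFB1, GAS6 and SRGN, the granule proteoglycan serglycin, and held 3 of 103 genes, for which the authors' deposited table gave a 7.41-fold enrichment (95% bounds 1.54 to 20.7, unadjusted p = 0.0604). The authors' deposited table gave the largest fold of any TGFB1 term, 72.7, to extracellular matrix assembly, where TGFB1 and GAS6 are 2 of 7 background genes. The bounds, here and below, are 95% exact binomial bounds of a term's share of the list, computed here and divided by its background share. They cover the draw of listed genes only, not the spread between libraries, and are a separate calculation from the deposited p.

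The 9 terms with BMP7 or HMGA2 ranged from epithelial to mesenchymal transition and chondrocyte differentiation to apoptosis, cell cycle arrest, cell proliferation, gene expression, binding to regulatory DNA, threonine phosphorylation and the response to vitamin D. Positive regulation of apoptotic process named TGFB1, BMP7, HMGA2, ANKRD1 and APBB1, 5 of 300 background genes, 4.24-fold enriched by the authors' deposited table (95% bounds 1.40 to 9.40, unadjusted p = 0.0289). Positive regulation of cell cycle arrest named TGFB1 and HMGA2, 2 of 25 genes, for which the authors' deposited table gave a 20.4-fold enrichment (95% bounds 2.48 to 70.7, unadjusted p = 0.0925). Response to vitamin D named TGFB1 and BMP7, 2 of 18 genes, 28.3-fold enriched by the authors' deposited table (95% bounds 3.44 to 98.2, unadjusted p = 0.0675). Negative regulation of cell proliferation named TGFB1 and BMP7 with EMP3, EREG and IGFBP7, 5 of 396 genes, and the authors' deposited table gave it the lowest fold of the 21, 3.21 (95% bounds 1.06 to 7.12, unadjusted p = 0.0672). EMP3 encodes a membrane glycoprotein and IGFBP7 a secreted insulin-like growth factor binding protein.

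Terms with neither pair included responses to stimuli and a glial process. Cellular response to mechanical stimulus named TGFB1, ANKRD1 and CYBA, 3 of 71 genes, for which the authors' deposited table gave a 10.8-fold enrichment (95% bounds 2.24 to 30.1, unadjusted p = 0.0309). Cellular response to organic cyclic compound named the same 3 genes, of 59 in the background, 12.9-fold enriched by the authors' deposited table (unadjusted p = 0.0219). These 2 terms thus rest on a single set of genes. Oligodendrocyte development, a process of the glia that myelinate axons, was named through TGFB1 and PRDM8, a PR domain gene, 2 of 23 genes and 22.1-fold enriched by the authors' deposited table (unadjusted p = 0.0854).

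Few genes carried each TGFB1 term. Of the 21 terms, 8 held 2 listed genes, 9 held 3 and 4 held more, so in 8 terms TGFB1 stood with 1 partner. The weakest listed term of the table, positive regulation of peptidyl-threonine phosphorylation, was such a pair of TGFB1 and BMP7, and the authors' deposited table gave it an 18.8-fold enrichment and an unadjusted p of 0.0995. When terms whose genes overlapped at a Jaccard index (shared genes over all genes of both) of 0.5 or more were collapsed to the one with the smallest p, 8 of 16 remaining HCC1954 terms named TGFB1. By the Jaccard index of the terms in which genes are named, the genes most like TGFB1 among those in at least 3 terms were HMGA2 (0.261), BMP7 (0.217), GAS6 (0.214), ANKRD1 (0.190) and CYBA (0.143).

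TGFB1 and AXL are also near neighbors on chromosome 19, a feature that the choice of genes did not use. AXL (41219203 to 41261766, plus strand) ends 39.8 kb before the lower coordinate of TGFB1, where the 3′ end of that gene lies, and HNRNPUL1, which reaches into that gap, was named in neither table. Of 29 protein-coding genes within 500 kb of TGFB1, AXL was the only gene named for HCC1954, while EXOSC5, an exosome subunit, and BCKDHA, a branched-chain ketoacid dehydrogenase subunit, were named for MDA231. Within the same distance, 0 of 2 genes near TGFB2 and 0 of 1 near TGFBR2 were named in either table, and 1 of 6 near SMAD4, the malic enzyme gene ME2, was named for MDA231. Over all background genes, the share named was 0.179% for HCC1954 and 15.8% for MDA231. The window was set with AXL already known as a partner of TGFB1, so these counts are a description and no test.

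The MDA231 table held the other ligand together with the receptor and SMAD4. TGFBR2 was in 10 of 314 terms (3.18%), SMAD4 in 9 (2.87%) and TGFB2 in 7 (2.23%), where the median named gene was again in 2. Of the 2646 named genes, 44 (1.66%) were in at least as many terms as TGFBR2, 71 (2.68%) as SMAD4 and 162 (6.12%) as TGFB2. At least 1 of the 3 was in 20 terms, 6.37% of the table. Of these 20, 1 had an adjusted p under 0.05, beside 4.78% of all MDA231 terms, and 12 (60.0%) had an unadjusted p under 0.05, beside 68.2% of all, in the authors' deposited table. The 20 terms had a median fold of 1.58 and the other 294 one of 1.96 in the authors' deposited table, at a median of 54.5 and 29.5 background genes.

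**Figure D2:**
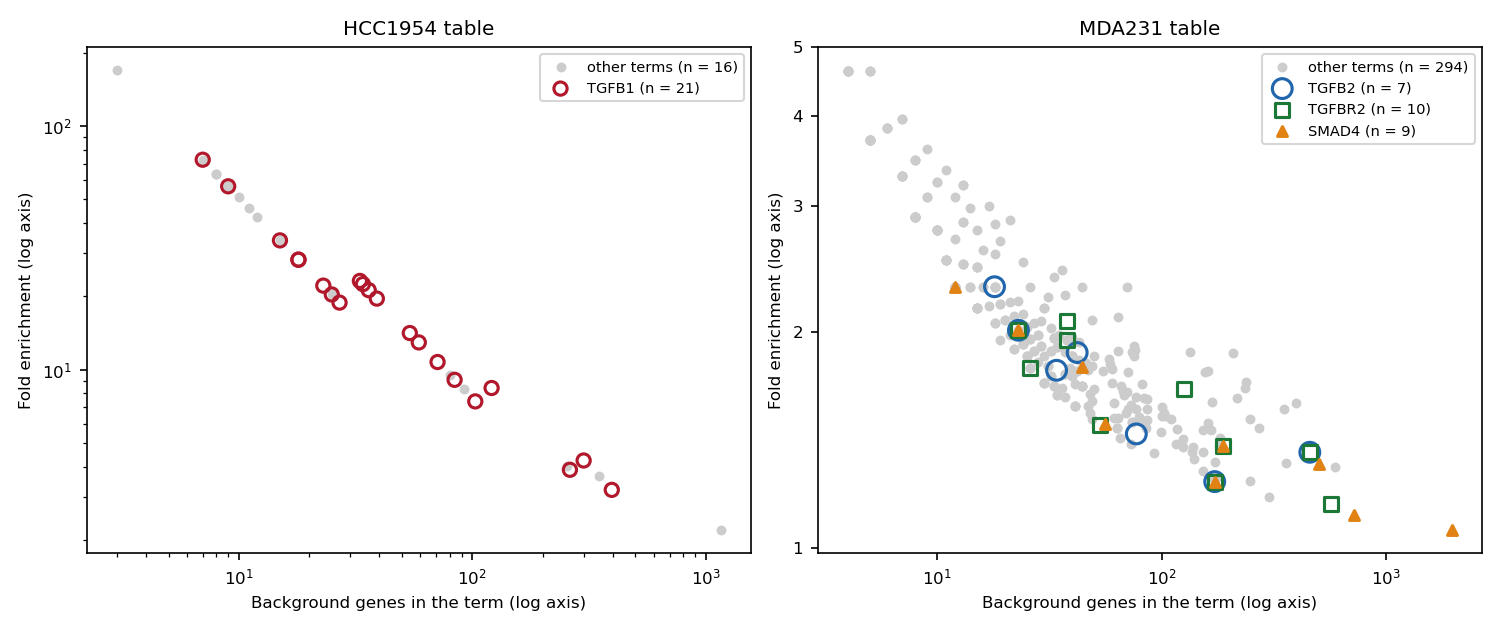
Fold enrichment against the number of background genes in each term (both on log axes) for the HCC1954 table (left) and the MDA231 table (right), with the terms that name TGFB1, TGFB2, TGFBR2 or SMAD4 marked and all other terms in grey. Folds fall with term size in both tables, HCC1954 folds reach 170 and MDA231 folds 4.63, and the term of 1955 background genes at the right edge is a SMAD4 term.

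The ligand TGFB2 was named in terms for death signaling, junctions, development and the cell cycle. Protein phosphorylation, which also names TGFBR2, was the term of smallest p for both genes, with 134 of 456 background genes, for which the authors' deposited table gave a 1.36-fold enrichment (95% bounds 1.14 to 1.61, adjusted p = 0.0350). Extrinsic apoptotic signaling pathway named TGFB2 beside the death receptor genes FAS and TNFRSF10A, the adaptor genes FADD and TRADD, the caspase CASP8 and the activin receptor ACVR1B, in all 17 of 42 genes, 1.87-fold enriched by the authors' deposited table (95% bounds 1.09 to 3.00, unadjusted p = 0.0110 and adjusted p = 0.600). Cell-cell junction organization named TGFB2 with the tight junction genes OCLN, CLDN1, MARVELD2 and MARVELD3, the adhesion gene CXADR, the polarity kinase PRKCI, the merlin gene NF2 and CCM2. These 9 genes, of 18 in the background, were 2.32-fold enriched by the authors' deposited table (95% bounds 1.06 to 4.39, unadjusted p = 0.0253 and adjusted p = 0.774).

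Further TGFB2 terms concerned the cell cycle and the closing of the neural tube. Positive regulation of cell cycle named TGFB2 with MYC, the cyclin-dependent kinase gene CDK4 and the kinase inhibitor gene CDKN1B, 13 of 34 genes in all, for which the authors' deposited table gave a 1.77-fold enrichment (95% bounds 0.943 to 3.02, unadjusted p = 0.0468). Neural tube closure held 24 of 77 genes, among them GRHL2, SHROOM3, TRAF6 and the retinoic acid receptor genes RARA and RARG, 1.44-fold enriched by the authors' deposited table (95% bounds 0.926 to 2.14, unadjusted p = 0.0552). TGFB2 was named with 223 genes, but only RARA (4 terms) and TGFBR2 (3) shared more than 2 terms with it. By the Jaccard index of their terms, and among genes in at least 3 terms, RARA (0.308), the splicing-factor kinase gene SRPK2 (0.222) and TGFBR2 (0.214) were the genes most like TGFB2. They were followed by 5 genes tied at 0.200, the BMP receptor gene BMPR1A, the chemokine gene CCL2, CDK4, CREB1 and HIPK1. ADM and PRKACB, which were in 2 terms each, had an index of 0.286.

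The receptor gene TGFBR2 was named in kinase and vessel terms. Peptidyl-serine phosphorylation held 45 of 125 background genes, for which the authors' deposited table gave a 1.67-fold enrichment (95% bounds 1.22 to 2.23, adjusted p = 0.0931), with the stress kinases MAPK8 and MAPK14 beside TGFBR2. Peptidyl-threonine phosphorylation held 17 of 38 genes, and the authors' deposited table gave it the largest fold of any TGFBR2 term, 2.07 (95% bounds 1.21 to 3.31, unadjusted p = 0.00352 and adjusted p = 0.413). This term set TGFBR2 beside the type I receptor genes ACVR1 and ACVR1B, MAPK8, GSK3B, MTOR and PDPK1. Blood vessel development held 16 of 38 genes, 1.95-fold enriched by the authors' deposited table (95% bounds 1.12 to 3.16, unadjusted p = 0.00942), and named TGFBR2 with the collagen gene COL1A1, the integrin gene ITGAV, whose product helps release latent TGF-beta, and the sphingosine kinase genes SPHK1 and SPHK2.

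Growth and death terms also named the receptor gene. Apoptotic process held 141 of 567 genes, for which the authors' deposited table gave a 1.15-fold enrichment (95% bounds 0.972 to 1.35, unadjusted p = 0.0397). Positive regulation of mesenchymal cell proliferation named TGFBR2 beside BMPR1A, CTNNB1, FGFR1, MYC and WNT5A, among other genes, and held 10 of 26 genes, 1.78-fold enriched by the authors' deposited table (95% bounds 0.855 to 3.27, unadjusted p = 0.0888). Regulation of growth held 17 of 53 genes, for which the authors' deposited table gave a 1.49-fold enrichment (unadjusted p = 0.0907), among them the cytokine signaling inhibitors SOCS1, SOCS3 and SOCS6. Of the 395 genes named with TGFBR2, the kinase gene HIPK3, BMPR1A and ACVR1 shared 4 terms each. They were also the genes with the most similar sets of terms (Jaccard index 0.400, 0.364 and 0.333), ahead of the kinase genes DYRK1A (0.273) and LMTK2 (0.250).

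SMAD4 was named in transcription, iron and heart terms. Negative regulation of transcription, DNA-templated held 141 of 499 background genes, 1.31-fold enriched by the authors' deposited table (95% bounds 1.10 to 1.54, unadjusted p = 0.000323 and adjusted p = 0.0909), and named SMAD4 with ID2 and ID3, inhibitors of basic helix-loop-helix factors and known SMAD targets. Transcription, DNA-templated, the broadest term of the table, held 447 of 1955 genes, and the authors' deposited table gave it the lowest fold of all 314 terms, 1.06 (95% bounds 0.968 to 1.15, unadjusted p = 0.0843). It was also the only term to name SMAD1, the BMP-responsive SMAD. Cellular iron ion homeostasis held 17 of 44 genes, for which the authors' deposited table gave a 1.79-fold enrichment (95% bounds 1.04 to 2.86, unadjusted p = 0.0177 and adjusted p = 0.698). Beside SMAD4, which relays the BMP signal that controls hepcidin in liver, it named HFE, the iron exporter SLC40A1, the importer SLC11A2, the iron-responsive regulators ACO1 and IREB2, and MYC.

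Further SMAD4 terms concerned the heart and limbs. Cardiac septum development held 6 of 12 genes, 2.32-fold enriched by the authors' deposited table (95% bounds 0.850 to 5.03, unadjusted p = 0.0955), namely SMAD4, CRELD1, MYH10, NDST1, SNX17 and ZBTB14. Embryonic digit morphogenesis held 18 of 56 genes, for which the authors' deposited table gave a 1.49-fold enrichment (unadjusted p = 0.0794), BMPR1A, CTNNB1 and WNT5A among them. Of 647 genes named with SMAD4, the T-box gene TBX3 and CTNNB1 shared 5 terms each. Among genes in at least 3 terms, those with the most similar sets were GATA6, a cardiac and endodermal transcription factor, and ZBTB14 (Jaccard index 0.444 each), then TBX3 (0.417), MSX2 (0.364), and then 12 genes tied at 0.333, CHD8 and BHLHE40 among them.

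The 3 MDA231 genes met in 2 of their 20 terms. Outflow tract septum morphogenesis, the division of the vessels that leave the embryonic heart, named TGFB2, TGFBR2 and SMAD4 with the receptor genes ACVR1 and BMPR1A, so 5 of its 10 listed genes are genes of the TGF-beta superfamily pathway. It held 10 of 23 background genes, 2.01-fold enriched by the authors' deposited table (95% bounds 0.966 to 3.70, unadjusted p = 0.0429 and adjusted p = 0.857). The remaining 5 listed genes were DVL3, GATA6, MSX2, PARVA and RARA. Response to hypoxia named the 3 genes among 46 of 172, for which the authors' deposited table gave a 1.24-fold enrichment (95% bounds 0.908 to 1.65, unadjusted p = 0.0870 and adjusted p = 0.958), beside the hypoxia genes ADM, ARNT, EGLN3 and DDIT4. No other gene was in both terms (0 of the table's remaining genes). TGFB2 and TGFBR2 also shared protein phosphorylation, and TGFBR2 and SMAD4 shared in utero embryonic development, which held 56 of 187 genes, 1.39-fold enriched by the authors' deposited table (95% bounds 1.05 to 1.80, unadjusted p = 0.00713 and adjusted p = 0.533). Alone among the 3, TGFB2 was in 4 terms, TGFBR2 in 6 and SMAD4 in 6.

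**Figure D3:**
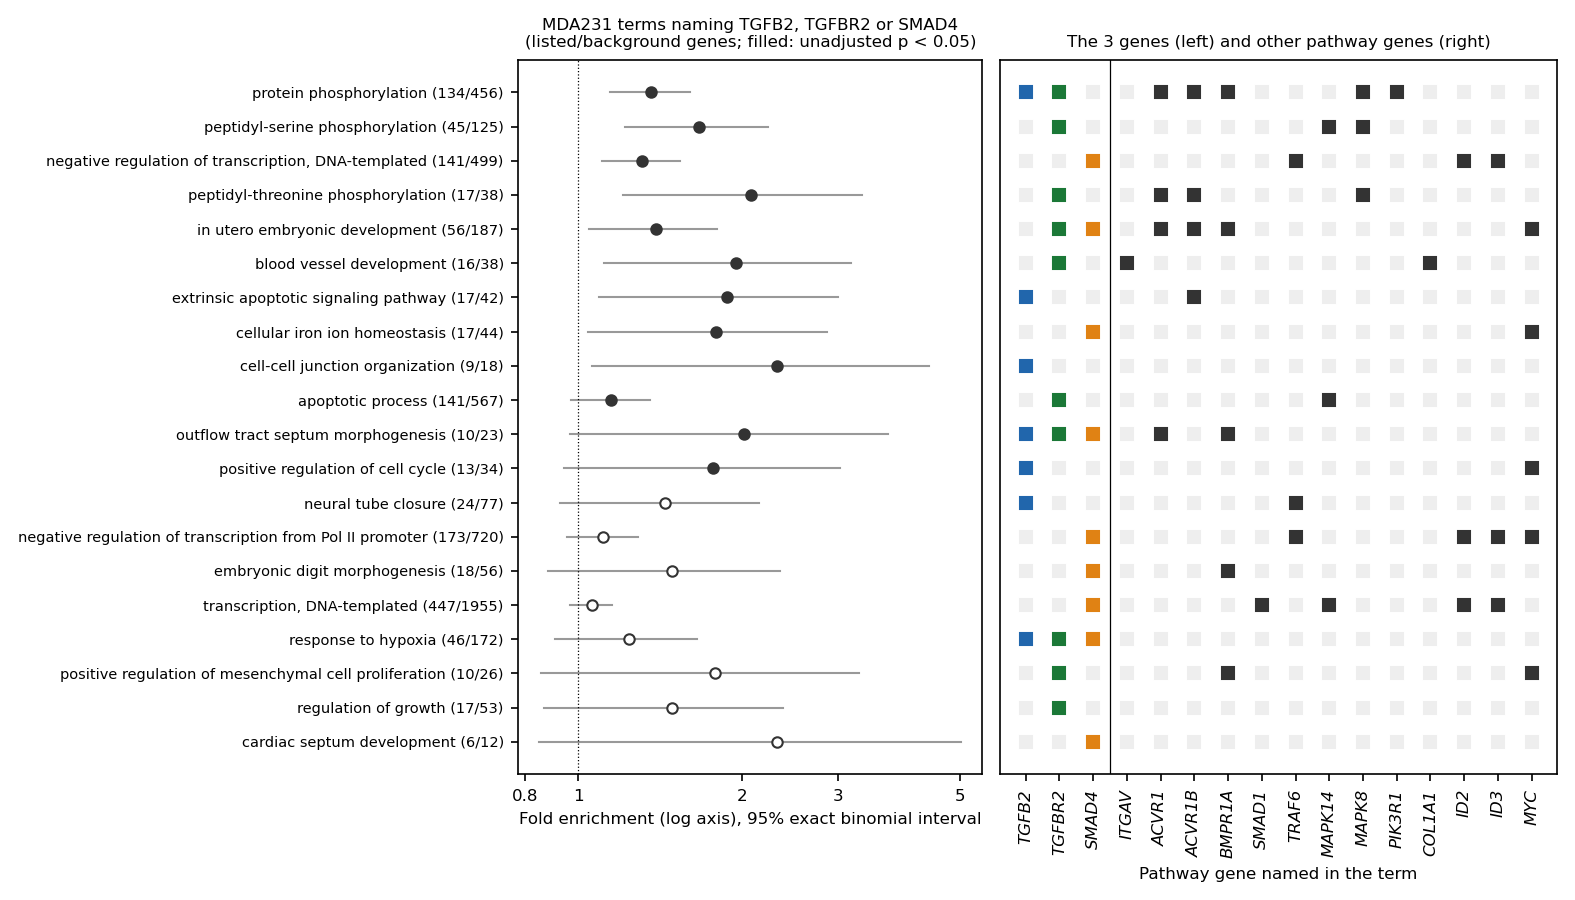
The 20 MDA231 terms that name TGFB2, TGFBR2 or SMAD4, ordered by p from the top, with the deposited fold enrichment (points, log axis; filled where the unadjusted p was under 0.05) and its 95% exact binomial interval (lines), beside a grid of the 3 genes (colored) and 13 other pathway genes (dark where named). All 3 genes are marked in outflow tract septum morphogenesis and response to hypoxia, and protein phosphorylation holds the most pathway genes, 7.

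A wider list of 114 genes of the TGF-beta superfamily pathway, set by role, was then looked up. The HCC1954 table named 3 of them (2.63%), beside 0.179% of all background genes, and the MDA231 table named 26 (22.8%), beside 15.8%. The list contains the 4 genes chosen because they were named, and other genes on it were known to be named when it was written, so these shares are not evidence of enrichment. A gene that belongs to more terms has more chances to be named, and the background shares, here and below, are not matched for this. They count only genes seen in a listed term, whereas the MDA231 list itself holds 3626 genes of the 16792 in the background. The 3 HCC1954 genes were in a median of 8 terms and the 26 MDA231 genes in a median of 4, beside 2 for all named genes of either table.

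Ligands and target genes were the roles named in both tables. Of 15 ligands, HCC1954 named TGFB1 and BMP7 (7 terms), and MDA231 named TGFB2 and INHBB (3 terms), an inhibin and activin beta subunit. Each table thus named 13.3% of the ligands, beside 0.179% of all background genes for HCC1954 and 15.8% for MDA231. Of 12 receptors, HCC1954 named 0, where 0.179% of all background genes were named, and MDA231 named 5, a share of 41.7% beside 15.8% of all. At the HCC1954 share, 0 of 12 is near the background and says nothing about receptors. These were TGFBR2 (10 terms), the type I receptor genes ACVR1 (6), ACVR1B (6) and BMPR1A (5), and the activin type II receptor gene ACVR2A (1). TGFBR2 shared 4 terms with ACVR1, 4 with BMPR1A and 3 with ACVR1B, and 0 with ACVR2A. TGFBR1, the usual type I partner of TGFBR2, was named in neither table. With 0.179% and 15.8% of background genes named, most genes are unnamed, so this absence says nothing about TGFBR1.

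Some genes of signal relay, inhibition and latency were named in the MDA231 table, the last 2 roles at shares below its background. For HCC1954 a count of 0 in these roles is near its background share of 0.179%. Of 12 SMADs and nuclear partners, MDA231 named SMAD4 (9 terms), the transcription factor gene SP1 (3) and SMAD1 (1), a share of 25.0% beside 15.8% of all background genes. SMAD2 and SMAD3, the SMADs that TGF-beta receptors phosphorylate, were named in neither table, as is true of most background genes. Of 12 relays outside the SMADs, MDA231 named the ubiquitin ligase gene TRAF6 (14 terms), MAPK14 (10), the phosphoinositide 3-kinase subunit gene PIK3R1 (7) and MAPK8 (6). That is a share of 33.3% beside 15.8% of all background genes. Of 20 inhibitors MDA231 named 2, SMURF1, a ubiquitin ligase acting on SMADs and receptors (4 terms), and BAMBI, a decoy receptor (1). Of 13 genes of latency and activation it named ITGAV alone (3). These shares, 10% and 7.69%, lie below the 15.8% of all background genes. HCC1954 named 0 of these 57 genes, which is not read as a difference between the lines.

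Among 30 known target genes, HCC1954 named HMGA2 (8 terms) and MDA231 named 9, a share of 30.0% beside 15.8% of all background genes. The MDA231 targets were MYC (15 terms), CDKN1A (9), ID3 (4), ID2 (3), CDH1 (3), COL1A1 (3), CDKN2B (2), CCN1 (1) and ACTA2 (1). CDKN1A and CDKN2B encode cell cycle inhibitors that TGF-beta induces in epithelium, and CDH1 encodes E-cadherin, which it represses. Of the 23 pathway genes named for MDA231 besides TGFB2, TGFBR2 and SMAD4, 13 shared a term with at least 1 of these 3. The 10 that did not were INHBB, ACVR2A, SP1, SMURF1, BAMBI, CCN1, CDKN1A, CDKN2B, CDH1 and ACTA2.

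**Figure D4:**
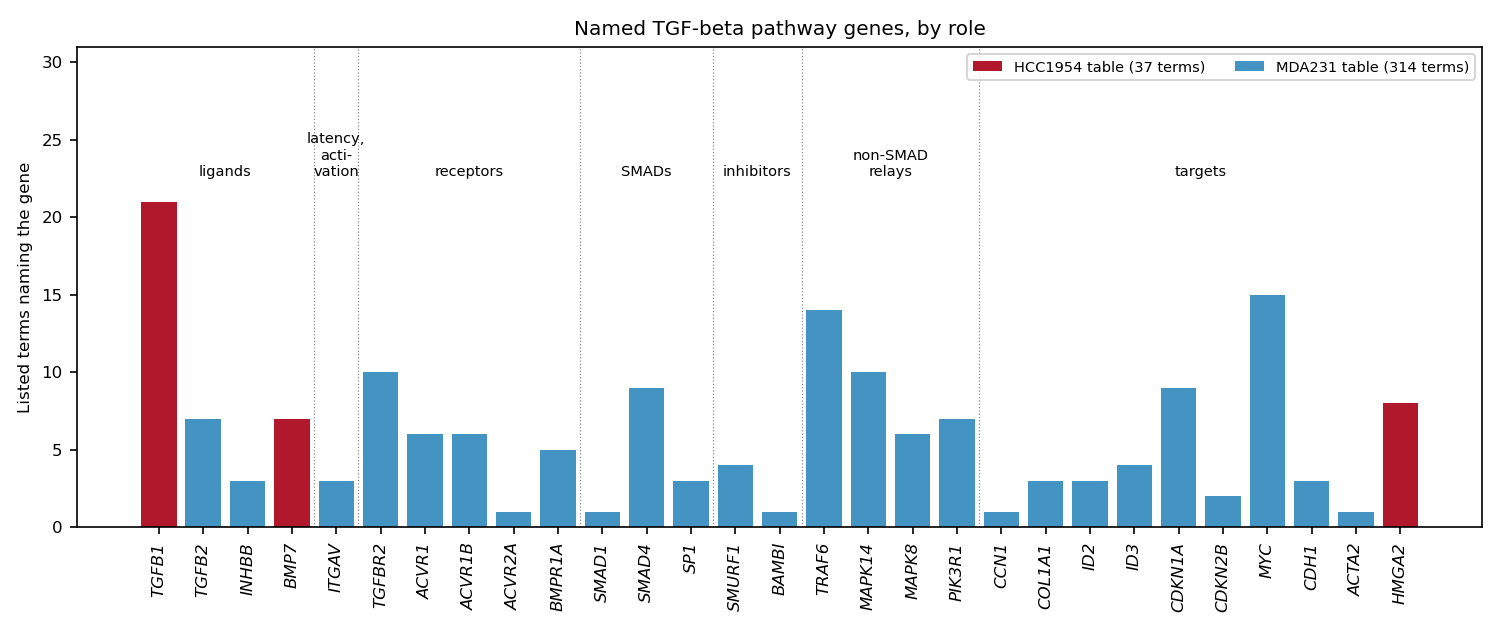
Number of listed terms (bars) that name each of the 29 pathway genes found in either table, grouped by role, for the HCC1954 table (37 terms) and the MDA231 table (314 terms). HCC1954 bars stand at TGFB1 (21), BMP7 (7) and HMGA2 (8) only, and the receptor, SMAD, inhibitor and relay bars are from MDA231, whose table names 15.8% of background genes against 0.179% for HCC1954.

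Processes of similar name stood in both tables and are given side by side. Since the tables share 0 of their 2676 genes, such terms name different genes for any pathway, and the differences below are not particular to this one. For HCC1954, the apoptosis term with a chosen gene was the positive regulation term with the ligand TGFB1. For MDA231, such terms were the extrinsic pathway with the ligand TGFB2 and apoptotic process with the receptor gene TGFBR2. Threonine phosphorylation was named through TGFB1 and BMP7 as its positive regulation for HCC1954, and through TGFBR2, ACVR1 and ACVR1B as the reaction itself for MDA231. Epithelial to mesenchymal transition held TGFB1 for HCC1954, whereas regulation of epithelial to mesenchymal transition for MDA231 (6 of 12 genes, 2.32-fold and unadjusted p = 0.0955 by the authors' deposited table) named CLASP1, CLASP2, DAG1, ELL3, MCRIP1 and POFUT2 and none of the 3 genes. Negative regulation of protein kinase B signaling for MDA231 (13 of 37 genes, 1.63-fold and unadjusted p = 0.0842 by the authors' deposited table) likewise named none of the 3, where both HCC1954 terms on protein kinase B named TGFB1. No listed term of either table has transforming growth factor, SMAD, BMP or activin in its name (0 of 37 and 0 of 314). A listed gene that is in no listed term is not seen in these tables, so a gene unnamed for a line may still be in that line's list, and the lists differ in size, 66 genes with a process for HCC1954 and 3626 for MDA231.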

How the data were processed

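Per the submitters' processing notes, the libraries were handled with STAR and HTSeq on GRCh38 and GRCm38. The tool and test of the enrichment, and how genes came to be listed, are, in the sources used here, not given. Per the file headers, a deposited row holds a term, how many listed genes it has (also as a percent), their identifiers, the totals of list and background, the unadjusted p-value of the enrichment, its fold (a ratio of shares) and p-values adjusted over terms. Benjamini values are the adjusted p-values printed. The largest unadjusted p listed was 0.0995 for HCC1954 and 0.0973 for MDA231, so terms of larger p are not seen. Deposited folds equal the ratio of shares computed from the numbers of genes.

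Ensembl identifiers were matched to symbols by a name table (1 MDA231 identifier had none). Coordinates are from GENCODE release 29. Terms naming each gene, partners, shared terms and Jaccard indices were counted with Python 3.11.15; the 95% bounds of a fold are exact (Clopper-Pearson) bounds of a term's share of the list, taken over its background share (SciPy 1.17.1). A gene and a partner planted in simulated sets were also recounted. That recount was bound to return the planted numbers and does not test the counts or Jaccard indices given here. In 3 MDA231 terms the deposited number is lower than the identifiers given, and the deposited number was used.

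The genes, the pathway list and the comparisons were chosen with earlier results of these data known. Named genes were, for each of the 4 genes, up to 10 partners by shared terms, the 5 most alike by Jaccard index among genes in at least 3 terms, pathway genes, and genes of terms with at most 5 listed genes. Other genes of a named term, the neighbors within 500 kb and the 2 MDA231 terms of similar name were chosen after their values were seen. Alternatives were other p thresholds, terms of at least 10 background or 3 listed genes, collapsed terms, at most 50 listed genes, at least 2 shared terms, and older symbols. The planned test of IP against input needs values per library and was left out.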

Additional observations from a re-analysis of the deposited data

How the results depend on the processing

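Of 44 alternative values for 14 results, 30 stayed close to the value reported: a count within 1.5 times, or a median fold inside the binomial interval of its median. Some of the 30 could not move, so their number does not measure robustness. Terms of TGFB2, TGFBR2 and SMAD4 had at least 18, 23 and 12 background genes, and 0 MDA231 terms listed 2 genes. Asking for at least 10 background or 3 listed genes thus removed none of their terms. No TGFB1 term came near 50 listed genes. The 14 values that moved follow. Terms naming TGFB1 numbered 12 with an unadjusted p under 0.05, 0 with an adjusted p under 0.05, 8 once overlapping terms were collapsed and 13 with at least 3 listed genes, against 21. With an adjusted p under 0.05, TGFB2 and TGFBR2 were each in 1 term and SMAD4 in 0, and with an unadjusted p under 0.05 SMAD4 was in 4. With at least 2 shared terms, partner genes numbered 20 for TGFB2, 68 for TGFBR2 and 186 for SMAD4. In terms of at most 50 listed genes they numbered 106, 138 and 85 in the same order of genes. Each setting behind these 14 values admits fewer terms or genes by construction. No paired analysis was possible because the tables hold no values per library. The comparison of IP with input was not run for the same reason. Depth is unknown, and no replicate could be left out.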
